A study of Mus musculus with 4 samples.

Results

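The MS4A genes described here are 9 mouse genes chosen by name: Ms4a4a, Ms4a4b, Ms4a4c, Ms4a4d, Ms4a6b, Ms4a6c, Ms4a6d, Ms4a7 and Ms4a8a. They were chosen with earlier results of these data known. A row for 7 of them was present in the authors' deposited table on unstimulated cells (15394 genes) and for 8 in that on stimulated cells (15310 genes), so 8 of 15881 genes in all are described. Ms4a4a had no row in either table and Ms4a4d none in unstimulated cells, where they were not analysed here. The cells were dendritic cells grown from bone marrow of C57BL/6 mice aged 8 weeks, either wild type (WT) or GOLPH2-/- (KO). GOLPH2 is a Golgi membrane protein encoded by Golm1. One set of cells had no stimulation, and another received IFN-gamma for 16 h as priming followed by LPS, a bacterial cell wall component, for 4 h. This gave 4 groups with 1 library each, so a KO to WT difference has no replicate check. The labels do not name the deleted part of Golm1, the number of mice behind a library, or whether both states of a genotype came from the same mice.

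MS4A proteins cross the membrane several times and sit in the plasma membrane or in endosomes, where they associate with other receptors and modulate their signals. The best known members are CD20 of B cells, encoded by Ms4a1, and the beta chain of the high-affinity IgE receptor of mast cells, encoded by Ms4a2. Several others, among them Ms4a4a, Ms4a6d and Ms4a7, are known from macrophages and other myeloid cells, and Ms4a4b from T cells.

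The number of reads behind each ratio was recovered from the deposited ratio and p-value. It came out whole in both libraries, within 0.05 of a read, for 99.7% of the recovered genes of unstimulated and 99.6% of those of stimulated cells. By this derivation the libraries held 34645474 (WT) and 39557201 (KO) reads in unstimulated cells, and 37712973 (WT) and 36783436 (KO) in stimulated cells. Levels are given below as reads, as RPM (reads per 1000000 reads of the library) or, to compare genes, as RPM per kilobase of annotated exon. Ratios are log2 of KO over WT after allowing for library totals. The error given as ± is a counting standard error (SE), which covers the sampling of reads and not the spread between cultures. The word called is used of genes with an adjusted p (Benjamini-Hochberg, from the deposited p-values) under 0.001, which compares 2 libraries and not 2 conditions. Golm1 had 190 reads in KO and 779 in WT stimulated cells, or 5.17 and 20.7 RPM, and was at 23.5% of the WT level in unstimulated cells.

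The labelled cell type was set against marker genes. Cd74 and H2-Ab1, of class II antigen presentation, lay at 3269 and 978 RPM in unstimulated WT cells. The dendritic cell transcription factor gene Zbtb46 was at 20.1 and the receptor gene Flt3 at 8.89. The receptor gene Csf1r, listed here as a macrophage marker, was at 578 in the same library. These few genes were named after their values were seen and do not settle which cell types were present. In bulk RNA, fewer cells of a type and less RNA per cell cannot be told apart.

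The 9 members lie in 1 stretch of chromosome 19 (GRCm38, GENCODE M21), which holds 21 protein-coding MS4A genes over 678.6 kb (chr19:10962293-11640851). In the order of the chromosome they are Ms4a8a (chr19:11067471-11081102, minus strand), Ms4a7 (chr19:11321039-11336146, minus), Ms4a4a (chr19:11375523-11392790, plus), Ms4a4c (chr19:11404770-11427246, plus), Ms4a4b (chr19:11443553-11467055, plus), Ms4a6c (chr19:11469366-11482192, plus), Ms4a6b (chr19:11516512-11531256, plus), Ms4a4d (chr19:11536801-11558467, plus) and Ms4a6d (chr19:11586604-11604849, minus). Each value is of a whole gene.

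Members of the cluster resemble each other in sequence. Of the 50-base stretches in the annotated transcripts of Ms4a6c, 10.5% also occur in another gene, most often in Ms4a6b. The share was 8.19% for Ms4a4c, whose closest match was Ms4a4b. It was 3.57% for Ms4a6b, 2.54% for Ms4a6d, 2.40% for Ms4a4b, 0.55% for Ms4a4d, 0.31% for Ms4a7, and none was found for Ms4a4a and Ms4a8a. Stretches of Ms4a6d were shared mostly with Ms4a6b. Of 100-base stretches, Ms4a4c shared 1.66%, all with Ms4a4b, and Ms4a6c 0.51%, with Prdm11. Ms4a6b and Ms4a6d shared 0 of that length. Values of members that share stretches, above all the 2 pairs Ms4a4b with Ms4a4c and Ms4a6b with Ms4a6c, are therefore less certain. The handling of reads that match several genes was not given in the sources used here.

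These pairs are alike upstream of their starts as well. The sequences shown are the 250 bases before the RefSeq transcript start (GRCm38.p6, printed 5′ to 3′ on the gene's strand) of the pair Ms4a6c and Ms4a6b, the pair Ms4a4c and Ms4a4b, and of Ms4a7 and Ms4a8a, the other members with an entry that were called in 1 state. For Ms4a7, the RefSeq table lists 2 starts and the one given there before the other is shown. Capitals mark matches, on either strand, to an IRF pair (GAAANNGAA, the spacing of paired interferon regulatory factor contacts) or to the PU.1 core (AGGAAGT, a myeloid transcription factor motif).
Ms4a6c (chr19:11469118-11469367, plus strand): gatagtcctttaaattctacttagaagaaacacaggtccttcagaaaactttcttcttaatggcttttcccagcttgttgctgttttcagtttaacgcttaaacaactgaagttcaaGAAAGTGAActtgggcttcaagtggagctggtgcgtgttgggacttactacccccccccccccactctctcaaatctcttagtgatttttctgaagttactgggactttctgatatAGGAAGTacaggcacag
Ms4a6b (chr19:11518309-11518558, plus strand): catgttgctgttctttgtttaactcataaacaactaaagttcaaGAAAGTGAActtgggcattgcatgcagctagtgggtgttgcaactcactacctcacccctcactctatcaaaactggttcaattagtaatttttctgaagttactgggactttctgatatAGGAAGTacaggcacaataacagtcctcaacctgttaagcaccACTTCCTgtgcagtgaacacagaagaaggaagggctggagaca
Ms4a4c (chr19:11407411-11407660, plus strand): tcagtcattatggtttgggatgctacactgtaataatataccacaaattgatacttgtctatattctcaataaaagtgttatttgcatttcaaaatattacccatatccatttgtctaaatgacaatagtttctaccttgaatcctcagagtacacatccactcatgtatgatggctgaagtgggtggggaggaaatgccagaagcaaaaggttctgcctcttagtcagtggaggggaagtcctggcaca
Ms4a4b (chr19:11443308-11443557, plus strand): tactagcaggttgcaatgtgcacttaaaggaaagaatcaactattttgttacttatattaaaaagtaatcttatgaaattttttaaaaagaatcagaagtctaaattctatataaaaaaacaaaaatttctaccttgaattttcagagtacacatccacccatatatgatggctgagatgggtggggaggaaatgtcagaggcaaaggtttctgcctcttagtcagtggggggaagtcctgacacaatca
Ms4a7 (chr19:11336147-11336396, minus strand): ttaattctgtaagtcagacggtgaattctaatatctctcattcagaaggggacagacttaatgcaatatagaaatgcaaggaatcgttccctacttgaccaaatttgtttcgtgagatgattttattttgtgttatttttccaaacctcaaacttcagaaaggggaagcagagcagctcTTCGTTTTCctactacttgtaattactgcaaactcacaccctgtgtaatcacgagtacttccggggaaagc
Ms4a8a (chr19:11081104-11081353, minus strand): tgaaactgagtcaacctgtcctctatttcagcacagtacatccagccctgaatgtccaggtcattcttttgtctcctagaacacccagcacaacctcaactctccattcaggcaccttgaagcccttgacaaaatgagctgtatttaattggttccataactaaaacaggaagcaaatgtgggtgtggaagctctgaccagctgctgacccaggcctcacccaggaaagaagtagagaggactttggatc

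In their best local alignment, Ms4a6b and Ms4a6c matched at 148 of 180 aligned positions (82.2%), and Ms4a4b and Ms4a4c at 117 of 133 (88.0%). Ms4a6c and Ms4a6b both hold the IRF pair GAAAGTGAA, at 133 to 125 bases before the start in Ms4a6c and at 206 to 198 in Ms4a6b. Both also hold the PU.1 core, at 17 to 11 bases before the start in Ms4a6c and at 86 to 80 and 43 to 37 in Ms4a6b. Of 8 members with a RefSeq entry, 3 held the IRF pair (Ms4a7, Ms4a6c and Ms4a6b) and 2 the PU.1 core, against 7.13% and 7.69% of all 32851 upstream sequences of this length in the table. The longer ISRE core (the IRF pair GAAANNGAA followed by 1 more A) was found in 0 of 8 members and 2.98% of all, and the GAS motif (TTCNNNGAA) in 0 of 8 and 7.02%. Such matches describe letters and not binding sites. The motifs were chosen after the sequences were seen, so the shares are no test. Ms4a6b and Ms4a6c are alike in this stretch, so their matches are not separate cases.

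Ms4a6d was by far the most abundant member in all 4 libraries. It held 68.2% of the reads of all members in unstimulated WT cells and 70.8% in unstimulated KO cells, and 67.4% (WT) and 70.8% (KO) in stimulated cells. In RPM per kilobase of exon, unstimulated WT cells held 110 of Ms4a6d, 14.7 of Ms4a4c, 11.7 of Ms4a7, 3.32 of Ms4a6c, 1.11 of Ms4a8a, 0.438 of Ms4a6b and 0.026 of Ms4a4b. This order was the same in the other 3 libraries for these 7 genes. Ms4a4d, seen in stimulated cells, was at 0.035 (WT) and 0.090 (KO) on this scale, from 2 and 5 reads, and could not be placed against Ms4a4b within counting error. Together the members made up 279 RPM in WT and 367 in KO unstimulated cells, and 298 and 354 in stimulated cells.

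**Figure D1:**
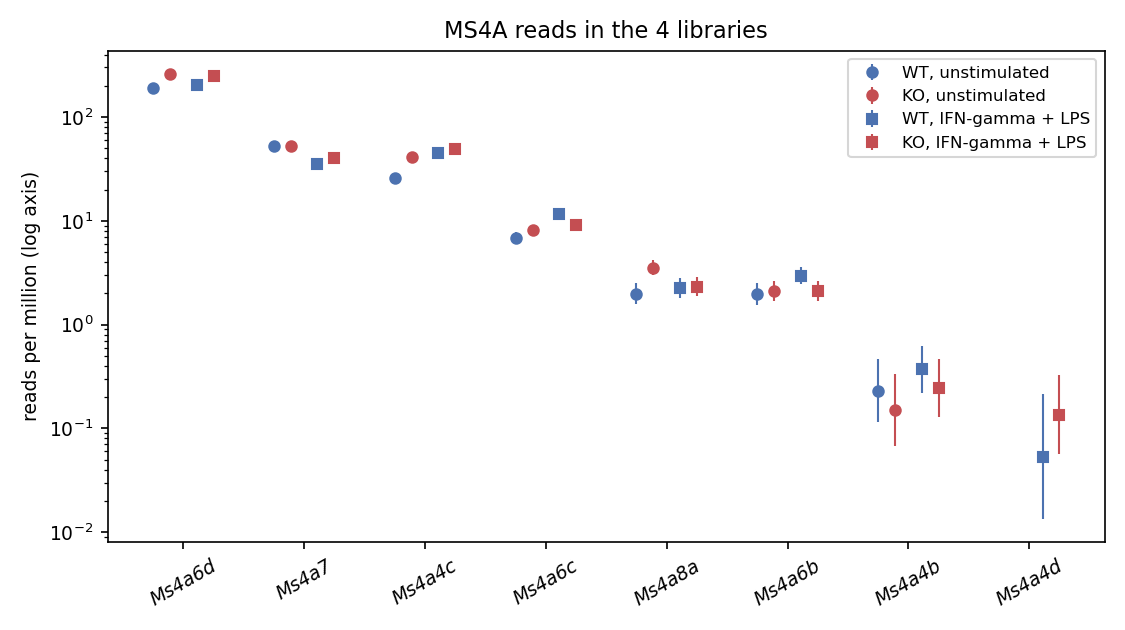
RPM (reads per 1000000, log axis) in each of the 4 libraries for the 8 members with a row, 1 point per library (circles unstimulated, squares after IFN-gamma and LPS, blue WT, red KO). Bars are 95% counting intervals; the points of Ms4a6d lie between 190 and 260 RPM, and those of Ms4a4b and Ms4a4d at or below 0.371.

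The first comparison sets MS4A transcripts of the KO library beside those of the WT library in unstimulated dendritic cells. Ms4a6d, Ms4a4c and Ms4a8a were called higher in the KO library, and no member was called lower. The 3 of 7 members called higher stand against 4.7% of all 15394 genes called higher and 4.27% called lower (8.96% in either direction). The median ratio of the 7 members was 0.27, against 0.00 over all genes. The authors' deposited table marks the same 3 members as differentially expressed. Those marks come with the same deposited p-values, so they are no separate check. The authors' threshold of 1.5-fold was refound on ratios as deposited, before allowing for library totals. Ms4a6d meets it as deposited (0.64), but not after allowing for library totals (0.45, or 1.37-fold). At an adjusted p under 0.05 the called members were the same 3, against 9.36% of genes higher and 8.5% lower (17.9% in either direction).

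Ms4a6d, the abundant myeloid member, had 6597 reads in WT and 10286 in KO unstimulated cells, or 190 and 260 RPM. KO was the higher library, with a ratio of 0.45 ± 0.023 (1.37-fold). Ms4a4c, a gene often found among interferon-induced transcripts of mouse leukocytes, had 892 reads in WT and 1624 in KO, or 25.7 and 41.1 RPM. Its ratio was 0.67 ± 0.060 (1.59-fold), and 11.3% of all genes had a ratio farther from 0. Ms4a8a, known from alternatively activated macrophages, had 69 reads in WT and 140 in KO, with a ratio of 0.83 ± 0.21 (1.78-fold). It was the highest ratio among the members, and its 95% counting interval reached from 0.41 to 1.25.

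The other 4 members of unstimulated cells were not called. Ms4a7, a macrophage marker, had 1807 reads in WT and 2059 in KO, equal to 52.2 and 52.1 RPM. Its ratio of −0.00 ± 0.047 bounds the difference to between −0.09 and 0.09. Ms4a6c was at 0.27 ± 0.12 (236 reads in WT, 325 in KO) and Ms4a6b at 0.10 ± 0.24 (68 and 83 reads). Ms4a4b, the member known from T cells, had 8 reads in WT and 6 in KO, too few to place its ratio of −0.61 ± 0.78.

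The second comparison concerns cells that had received both stimuli. Ms4a6d and Ms4a7 were called higher in the KO library and no member was called lower, that is 2 of 8 against 5.36% of all 15310 genes called higher and 6.54% called lower (11.9% in either direction). The median ratio of the 8 members was 0.08, against 0.01 over all genes. No member was marked in the authors' deposited table of stimulated cells.

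Ms4a6d had 7589 reads in WT and 9205 in KO stimulated cells, or 201 and 250 RPM. The KO library was again the higher, at 0.31 ± 0.022 (1.24-fold). Ms4a7 had 1318 reads in WT and 1489 in KO, or 34.9 and 40.5 RPM, a ratio of 0.21 ± 0.055 (1.16-fold). Its adjusted p of 0.000857, by Benjamini-Hochberg over the deposited p-values, lay just under the threshold. Ms4a4c, at 1693 and 1802 reads, was at 0.13 ± 0.049 and was not called. Ms4a8a had 85 reads in each library (0.04 ± 0.22). At an adjusted p under 0.05, Ms4a4c and, on the lower side, Ms4a6c would be added, against 10.2% of genes higher and 11.7% lower (21.9% in either direction).

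Both Ms4a6 genes of the plus strand were lower in KO in stimulated cells without being called. Ms4a6c had 443 reads in WT and 336 in KO, a ratio of −0.36 ± 0.10 with a 95% counting interval from −0.57 to −0.16. Ms4a6b had 112 and 78 reads, a ratio of −0.49 ± 0.21. Ms4a4b (14 reads in WT, 9 in KO) was at −0.60 ± 0.62 and Ms4a4d (2 and 5 reads) at 1.36 ± 1.21. Neither of these last ratios was larger than 2 counting errors.

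**Figure D2:**
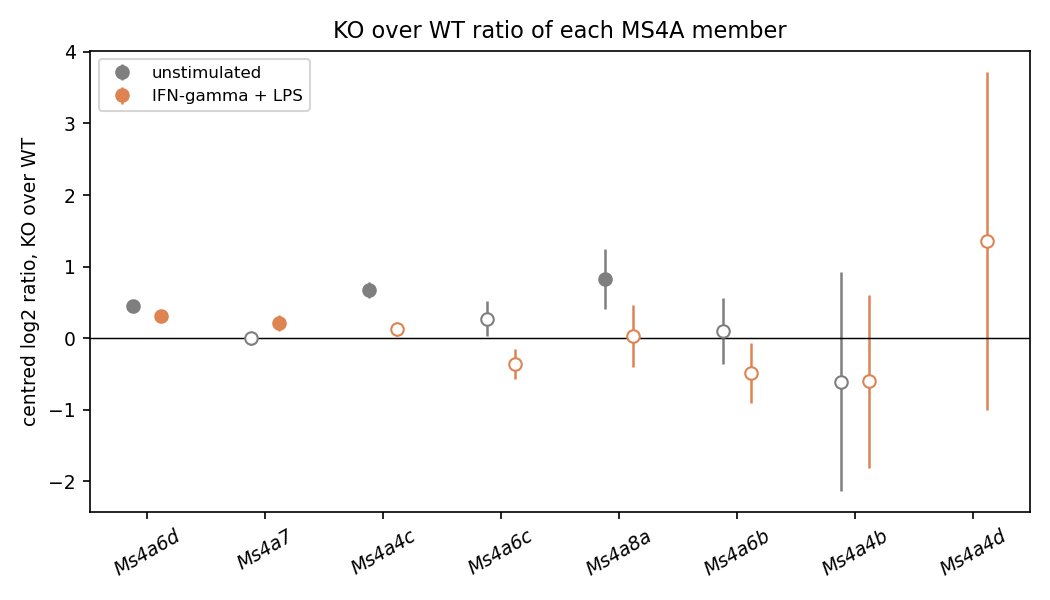
Centred log2 ratio of KO over WT for each member in unstimulated (grey) and stimulated cells (orange). Bars are 95% counting intervals; filled points were called (3 unstimulated, 2 stimulated) and open points were not, and the wide bars of Ms4a4b and Ms4a4d come from 2 to 14 reads per library.

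The states were measured in separate libraries. Ms4a6d alone was called in both, at 0.45 and 0.31. In the additive model of state and genotype (limma, on log2 RPM) the 2 states serve as repeats. The labels do not say whether both states of a genotype came from the same mice, so they may not be independent repeats. The model's error has 1 residual degree of freedom per gene. It is drawn towards that of other genes with a weight of 14.54 prior degrees of freedom, so it comes mostly from those. The genotype term of Ms4a6d was 0.38 ± 0.045 with an adjusted p of 0.000104 (limma). Ms4a4c passed too, at 0.40 ± 0.089 (adjusted p 0.00957, limma). The gap between the states' own ratios, divided by 2, was 0.068 for Ms4a6d and 0.27 for Ms4a4c. It was 0.40 for Ms4a8a, 0.11 for Ms4a7, 0.32 for Ms4a6c and 0.29 for Ms4a6b. The printed error of each of these members is smaller than its own 2 ratios would give. The members that passed were 2 of 6 fitted, against 4.65% of 11140 genes that passed on the higher side and 4.33% on the lower. Ms4a8a (0.43 ± 0.19), Ms4a7 (0.10 ± 0.061), Ms4a6c (−0.05 ± 0.12) and Ms4a6b (−0.19 ± 0.19) did not pass an adjusted p of 0.05 by limma.

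The ratios of several members were smaller, or of the other sign, in stimulated cells. With 1 library per group no test of this difference could be made, and its values are given with counting errors. Ms4a4c went from 0.67 to 0.13, a difference of −0.55 ± 0.077. Ms4a8a went from 0.83 to 0.04 (−0.79 ± 0.31), and Ms4a6c from 0.27 to −0.36 (−0.63 ± 0.16). Ms4a6b was at −0.58 ± 0.32 and Ms4a4b at 0.00 ± 0.99, and both 95% counting intervals held 0. For Ms4a6d the difference was −0.14 ± 0.032. For Ms4a7 it was 0.21 ± 0.072, so Ms4a7 had the larger KO ratio after stimulation. The 95% counting interval of the difference lay wholly below 0 for 4 of 7 members and above 0 for 1, against 9.1% and 8.46% of 14742 genes (17.6% in either direction).

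**Figure D3:**
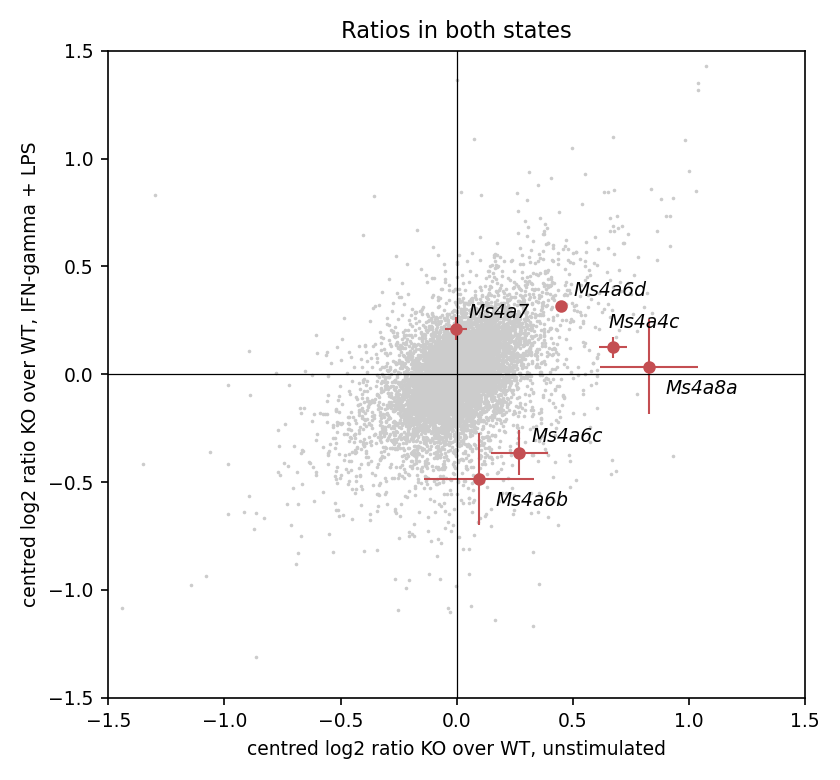
Centred log2 ratio of KO over WT in unstimulated cells (x axis) against stimulated cells (y axis) for 6 members (red, bars of 1 counting SE) and 10952 other genes (grey), all at least as precise as a gene with 50 reads in each library. Another 8 genes lie outside the axes; Ms4a6d is at 0.45 and 0.31, while Ms4a6c lies at 0.27 and −0.36.

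The recovered reads also give each genotype's response to stimulation, which the deposited ratios do not give. In WT cells Ms4a4c rose from 25.7 to 44.9 RPM (1.74-fold). In KO cells it was at 41.1 without stimulation and at 49.0 after it (1.19-fold). The level in unstimulated KO cells lay closer to that of both stimulated libraries than to that of unstimulated WT cells. Ms4a6c was at 6.81 and 11.7 RPM in WT cells before and after stimulation (1.72-fold), and at 8.22 and 9.13 in KO cells (1.11-fold). Ms4a6b was at 1.963 and 2.97 in WT (1.51-fold), and at 2.10 and 2.12 in KO. Ms4a8a was at 1.99 and 2.25 in WT, and at 3.54 and 2.31 in KO.

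Ms4a7 went the other way, from 52.2 to 34.9 RPM in WT cells and from 52.1 to 40.5 in KO cells. Ms4a6d stayed between 190 and 260 in all libraries. With the genotypes taken as repeats, the state term of the additive model (limma) rose for Ms4a4c (0.53 ± 0.089, adjusted p 0.000113) and Ms4a6c (0.47 ± 0.12, adjusted p 0.00330), and fell for Ms4a7 (−0.47 ± 0.061, adjusted p 8.04e-06). The gap between the 2 genotypes' own responses, divided by 2, was 0.27 for Ms4a4c, 0.32 for Ms4a6c and 0.11 for Ms4a7. Each was larger than the error printed for that member. Of all genes fitted, 14% passed as higher and 47.2% as lower in stimulated cells. The median gene was lower by 0.15 in stimulated WT cells on this scale (−0.15 on log2), and with libraries scaled on the median gene the split was 22.9% higher and 20.6% lower. On that scale Ms4a4c was at 0.67, Ms4a6c at 0.61 and Ms4a7 at −0.32, all still past the threshold, and Ms4a6d passed as well, at 0.16 ± 0.045 (adjusted p 0.0141, limma).

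Genes beside the cluster were set against the members. Of 21 protein-coding genes within 250 kb of it, 15 had a row in unstimulated and 13 in stimulated cells, and 0 were called in either state, where 8.96% and 11.9% of all genes were called. A count of 0 among so few genes lies near that background. The 8 that were at least as precise as a gene with 50 reads in each library lay between −0.11 (Tmem132a) and 0.14 (Ccdc86) in unstimulated cells, and between −0.11 (Stx3) and 0.10 (Mrpl16) in stimulated cells. Among the other MS4A genes of the cluster, 3 had a row, all at low levels. Ms4a1, which encodes CD20, had 12 reads in WT and 24 in KO unstimulated cells, and 10 and 22 in stimulated cells. Its ratios of 0.81 ± 0.51 and 1.17 ± 0.55 were not called. Ms4a18 had 2 reads in WT and 1 in KO in stimulated cells, and 1700025F22Rik, named Ms4a19 in RefSeq, had 1 and 2.

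**Figure D4:**
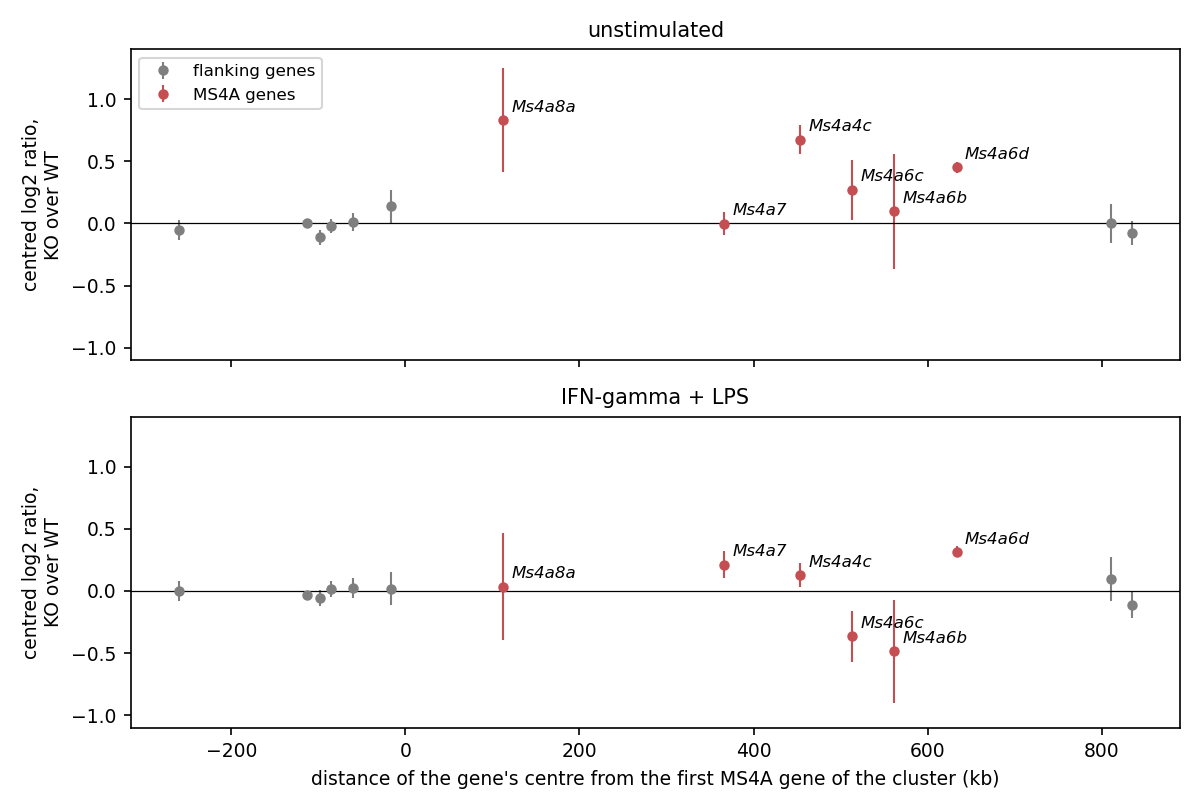
Centred log2 ratio of KO over WT, with 95% counting intervals, against distance in kb along the cluster, for MS4A genes (red) and flanking genes (grey) at least as precise as a gene with 50 reads in each library. The flanking genes stay within −0.11 and 0.14 in both states, and Ms4a8a, Ms4a4c and Ms4a6d stand above them in unstimulated cells.

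Related genes and signalling partners were listed beside the members. Tmem176a and Tmem176b, CD20-like membrane proteins of myeloid cells encoded on another chromosome, were higher in KO in both states. Tmem176b was called in both, at 0.42 ± 0.059 and 0.27 ± 0.064, and Tmem176a in stimulated cells alone (0.28 ± 0.092 and 0.48 ± 0.11). Clec7a, which encodes the fungal receptor dectin-1, a partner of MS4A4A, was at −0.01 ± 0.010 in unstimulated cells and was called higher at 0.17 ± 0.012 in stimulated cells. The receptor adaptor genes Fcer1g (0.08 ± 0.017 and 0.11 ± 0.017, called in both states) and Tyrobp (0.14 ± 0.038, and 0.25 ± 0.044 with a call) had small ratios. Tnfrsf18, which encodes GITR, a costimulatory receptor of T cells linked to Ms4a4b, was called in unstimulated cells at 0.29 ± 0.075 and was at 0.21 ± 0.081 in stimulated cells. Trem2, Syk, Card9 and Kit were called in neither state, and Fcer1a and Vsig4 had no row. Of 8 partners with a row, 2 were called higher in unstimulated and 3 in stimulated cells, and 0 lower, against 4.7% and 5.36% of all genes called higher.

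For the lists that follow, the shares over all genes were 4.7% called higher and 4.27% lower in unstimulated cells, and 5.36% and 6.54% in stimulated cells. These lists and that of the partners were chosen with earlier results of these data known, so the shares are no test. Genes of alternative macrophage activation, the setting in which Ms4a4a and Ms4a8a are known, had 10 of 15 called higher and 2 lower in unstimulated cells, with a median of 0.25. In stimulated cells 8 were called higher and 2 lower, with the same median of 0.25. Clec10a, a lectin of such macrophages and of dendritic cells, was called in both states, at 0.84 ± 0.12 and 0.86 ± 0.15. The arginase gene Arg1 was called in both as well, at 0.56 and 0.61, with reads recovered in neither state. Chil3, of the same list, was called lower in both states, at −0.12 and −0.05. Stab1 was called lower in unstimulated cells alone (−0.24 ± 0.056), and Klf4 in stimulated cells alone (−0.59 ± 0.037). Type I interferon response genes had 7 of 32 called higher and 3 lower in unstimulated cells (median 0.04), and 0 higher and 30 lower in stimulated cells (median −0.49). Ifi205 had the largest called ratio of that list in unstimulated cells, at 0.59 ± 0.033, and was at 0.05 ± 0.020 without a call in stimulated cells. Ifit2 was called higher at 0.33 ± 0.073 and then lower at −1.17. Ms4a4c, which is not on that list, was at 0.67 and 0.13 in the same states.

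Markers of cell types that could carry MS4A transcripts were summed in each library. Macrophage and monocyte markers (19 of 20 with a row) had 9 called higher and 4 lower in unstimulated cells, and 8 and 3 in stimulated cells. The summed level of the 17 with recovered reads was 2820 RPM in KO and 2725 in WT unstimulated cells, and 2477 and 2347 in stimulated cells. Adgre1, which encodes the macrophage antigen F4/80 and stands in the tables as Emr1, was called higher in both states, at 0.13 ± 0.011 (966 RPM in WT, 1058 in KO) and 0.13 ± 0.010 (984 and 1078). Csf1r (−0.27 ± 0.015 and −0.15 ± 0.016), Marco (−0.45 ± 0.052 and −0.36 ± 0.051) and Cd14 (−0.51 and −0.27) were called lower in both states. Cd14, and Lyz2 that was called higher at 0.15 and 0.16, are not in the summed level. Vsig4 had no row. The complement gene C1qb was called higher in KO in both states (127 reads in WT and 290 in KO, then 138 and 259), and Spic, of iron-recycling macrophages, lower in unstimulated cells (−1.75 ± 0.39). Dendritic cell markers (15 of 16 with a row) had 7 called higher and 0 lower, then 7 and 1. Their summed level was 5979 in KO and 5658 in WT over 14 genes, and 7129 and 6612 over 15. Cd74 alone made up 3356 and 3269 of these sums, then 3493 and 3298. Batf3 was called higher in both states (0.51 ± 0.040 and 0.57 ± 0.042), and Cd209a had no row. B cell markers, which include Ms4a1, had 0 of 11 called in either state and sums of 25.5 (KO) and 20.4 (WT), then 21.9 and 19.04. Cd22 alone made up 18.4 and 16.1 of these, then 16.5 and 16.1. T and NK cell markers had sums of 100 and 76.2, then 101 and 80.8, with 2 of 14 called higher, then 3 higher and 1 lower. Thy1 alone made up 73.0 and 55.2 of these, then 68.6 and 51.5, and it is also in the stromal sum below. Mast cell markers had 7 of 11 with a row in unstimulated cells and 4 in stimulated cells, with Ms4a2 and Fcer1a having none. The sums were 128 (KO) and 154 (WT), then 336 and 369, and Hdc was called lower in both states. Hdc alone made up 112 and 136 of these sums, then 320 and 353, so they are mostly the level of 1 gene. Granulocyte markers, without Ms4a3, were at 257 and 322, then 351 and 398, with 2 of 10 and 1 of 7 called lower. Lcn2 alone made up 164 and 212 of these, then 280 and 330. Stromal and endothelial markers were at 196 and 159, then 210 and 150, with 4 called higher and 0 lower, then 6 and 2. Genes of collagen and fibronectin were called with large ratios among them. Col3a1 was at 3.06 ± 0.76 (4 reads in WT, 38 in KO) and 6.27 ± 0.84 (3 and 226 reads), and Col1a2 at 1.36 ± 0.32 and 2.77 ± 0.25. Fn1 was at 1.07 ± 0.097 and 1.43 ± 0.078. Col1a1 was at 0.62 ± 0.26 without a call in unstimulated cells and at 3.51 ± 0.26 in stimulated cells. The 2 called lower in stimulated cells were Pdgfrb (−0.74 ± 0.15) and Kdr (−0.41 ± 0.085). Pdgfra, Dcn, Lum and Acta2 were called in neither state. The part of these cell types in the MS4A ratios was not tested.

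The genes with the most similar pair of ratios were sought among 10965 genes of that same precision. Likeness was the distance between pairs of ratios, so it rests on 2 values per gene. Nearest to Ms4a8a, the member with the largest called ratio in unstimulated cells, were Fam149a (distance 0.14), Amotl1 (0.17), Ms4a4c (0.18), Dagla (0.20) and Alyref2 (0.21). The ratios of Ms4a8a have counting errors of 0.21 and 0.22, about as large as these distances or larger. Nearest to Ms4a6d, the largest in stimulated cells, were Gm8773 (0.0087), Socs3 (0.010), Enah (0.017), Cdh24 (0.026) and Plet1 (0.039). Counting errors of Gm8773 (0.23 and 0.19) and Cdh24 (0.29 and 0.26) are far larger than their distances. The order of the genes named is therefore not settled.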

How the data were processed

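The authors deposited 2 tables of KO over WT comparisons, with a log2 ratio and a −log10 p-value per gene per the file headers. FastQC 0.10.1, HTSeq 0.6.0 and mm10 are named per the submitters' processing notes, and libraries were strand-specific mRNA per the labels' protocols. The aligner, annotation, strand setting and test were not given in the sources used here.

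First, the ratio at which p is 1 (0.191 and −0.036 as log2 in unstimulated and stimulated cells) was subtracted from each ratio. It was solved from genes of ratio 0, taking the one with the highest p as 1 read against 1 read. Reads were solved from ratio and p by the normal approximation of a log ratio at a fixed mean count, with the library totals that made reads whole. This is an own derivation, in which 0 reads enter as 0.5. It gave no reads for 54 genes in each table, 51 and 50 of them at the highest deposited −log10 p. These, Lyz2 and Cd14 among them, are left out of summed levels.

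The counting SE is the root of the summed inverse reads, on the log2 scale. Adjusted p-values (Benjamini-Hochberg) cover each whole table. The threshold of 0.001, with 1.5-fold, refound all 161 and 159 genes the authors marked. The additive model, added after seeing the data, used limma 3.58.1 (R 4.3.3) on 11140 genes with a mean of at least 50 reads, with 1 residual and 14.54 prior degrees of freedom and an adjusted p under 0.05. Exon lengths and positions came from GENCODE M21 and upstream sequences from RefSeq (8 of 9 members matched, all but Ms4a6d), read with Python 3.11.15. Procedures were tested on simulated data.

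Listed genes with no row under their current symbol were looked up by RefSeq synonyms, which found 1 (Adgre1). Genes named were all members, other MS4A rows, partners, Golm1, genes within 250 kb, the nearest patterns, and called genes of each other list by size of ratio (up to 3). Adgre1, Cd74, H2-Ab1, Zbtb46, Flt3, Csf1r, Marco, Cd14, Lyz2 and Cd22 were named after their values were seen. So were Pdgfrb, Kdr, Pdgfra, Dcn, Lum, Acta2, Chil3, Stab1 and Klf4. Members and lists were chosen with earlier results of these data known, and motifs after the sequences were seen.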

Additional observations from a re-analysis of the deposited data

Results flagged for a closer look

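Ms4a6c had ratios of opposite sign in the 2 states, each with a 95% counting interval that left out 0. KO was above WT in unstimulated cells (0.27, from 236 reads in WT and 325 in KO) and below it in stimulated cells (−0.36, from 443 and 336 reads). Neither ratio was called at an adjusted p under 0.001, and the difference between the states was not tested, since each group has 1 library. Ms4a6b, which shares 50-base stretches with Ms4a6c, was at 0.10 and −0.49.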

How the results depend on the processing

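The 3 members called in unstimulated cells were the same under all 5 alternatives (ratios as deposited, ratios centred on the median gene, an adjusted p under 0.05, the authors' 1.5-fold rule on ratios as deposited, and precise genes alone). Calls rest on the deposited p-values, so another centring of the ratios could not change which members were called. A looser threshold could only add members. The 1.5-fold rule kept Ms4a6d on its ratio as deposited (0.64), and its centred ratio of 0.45 (1.37-fold) would not meet that rule. In stimulated cells the 2 calls became 4 at an adjusted p under 0.05 (3 higher, 1 lower) and 0 with 1.5-fold as deposited, because both ratios are smaller than that. With ratios as deposited, the sign reversed for Ms4a7 in unstimulated cells (0.19), and for the differences between states of Ms4a4b (−0.22) and Ms4a7 (−0.012). The number of members whose difference had a 95% counting interval without 0 stayed at 5, with Ms4a6b in place of Ms4a7. With libraries scaled on the median gene, the response of Ms4a6d in KO cells reversed from −0.055 to 0.091. The additive model gave the same 2 members for genotype under both of its alternatives (adjusted p 1.06e-06 to 0.000847 for Ms4a6d and 0.000784 to 0.0322 for Ms4a4c, limma), and 4 in place of 3 for state on the median-gene scale. No paired analysis was possible because the labels carry no replicate numbers and each group has 1 library; the additive model sets genotypes against each other within state. Depth limits Ms4a4b, Ms4a4d, Ms4a1, Ms4a18 and 1700025F22Rik, with 1 to 24 reads per library.
The alternatives of the additive model and of the stimulation response were chosen after seeing the data.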
